A study of Mus musculus with 6 samples.

Results

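Hyaluronan is made, bound and broken down by a small set of genes, and 10 of them were followed here in perivascular cells of mouse tumors: the hyaluronan synthases Has1, Has2 and Has3, the hyaluronidases Hyal1 and Hyal2, the matrix proteins Vcan, Tnfaip6 and Hapln1, and the receptors Cd44 and Hmmr. They were taken by name, and each was read from the probe set that carries its symbol alone, the brightest over the 6 arrays where a gene has several. Of the 10 genes, 9 had such a probe set, among 22180 genes in all. Hyal1 was found only on 2 probe sets shared with Naa80 and has no value of its own.

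The cells came from subcutaneous T241 fibrosarcomas grown in C57BL/6 mice. In the FGF-2 tumors, the implanted T241 cells carried GFP and overexpressed human FGF-2. In the vector tumors, T241 cells with GFP carried the vector without FGF-2. Tumors were digested with collagenase, and cells that stained for NG2 and lacked EGFP were sorted, a gate meant for perivascular cells rather than tumor cells. RNA of 3 FGF-2 tumor samples and 3 vector tumor samples was hybridised to Affymetrix Mouse Gene 2.0 ST arrays, a 1-colour design. The C57BL/6 mice of the study were young adult females. All tumors derive from 1 fibrosarcoma line, and whether a sample pools several tumors is not stated.

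Hyaluronan is a long, unbranched sugar polymer that synthases in the plasma membrane extrude straight into the extracellular space. There it binds proteoglycans such as versican, is cross-linked by proteins that carry link modules, is sensed by receptors such as CD44, and is cut by hyaluronidases. Mural cells and fibroblasts are known producers of hyaluronan in tissue stroma, and a matrix rich in hyaluronan and versican is known from healing wounds and from many tumors.

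Of the 9 measured genes, Has2 and Vcan rose in FGF-2 tumors (limma, Benjamini-Hochberg adjusted p over all 22180 genes under 0.05). None fell, and 7 did not pass. Over all genes, 1.03% rose and 0.284% fell. At an unadjusted p under 0.05, limma gave 4 of the 9 genes as higher and 0 as lower in FGF-2 tumors, and the methods' t-test gave 3 as higher and 0 as lower. Over all genes, limma gave 8.13% as higher and 6.48% as lower at that threshold, and the methods' t-test 7.35% and 5.58%. The median log2 fold change of the 9 genes was 0.15, with a range of -0.05 to 1.64, beside a median of -0.02 over all genes. In 3 of the 9 genes, Has2, Vcan and Hmmr, every FGF-2 tumor array lay above every vector tumor array, as in 11.3% of all genes. In the other 6 the groups overlapped. Levels below are log2 array signals as deposited. They are compared between groups for one gene, and not between genes, because probe sets differ in brightness. In bulk RNA of sorted cells, fewer cells of a type and less RNA per cell cannot be told apart, and pericyte and fibroblast markers were also higher in FGF-2 tumors, as described further on.

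**Figure D1:**
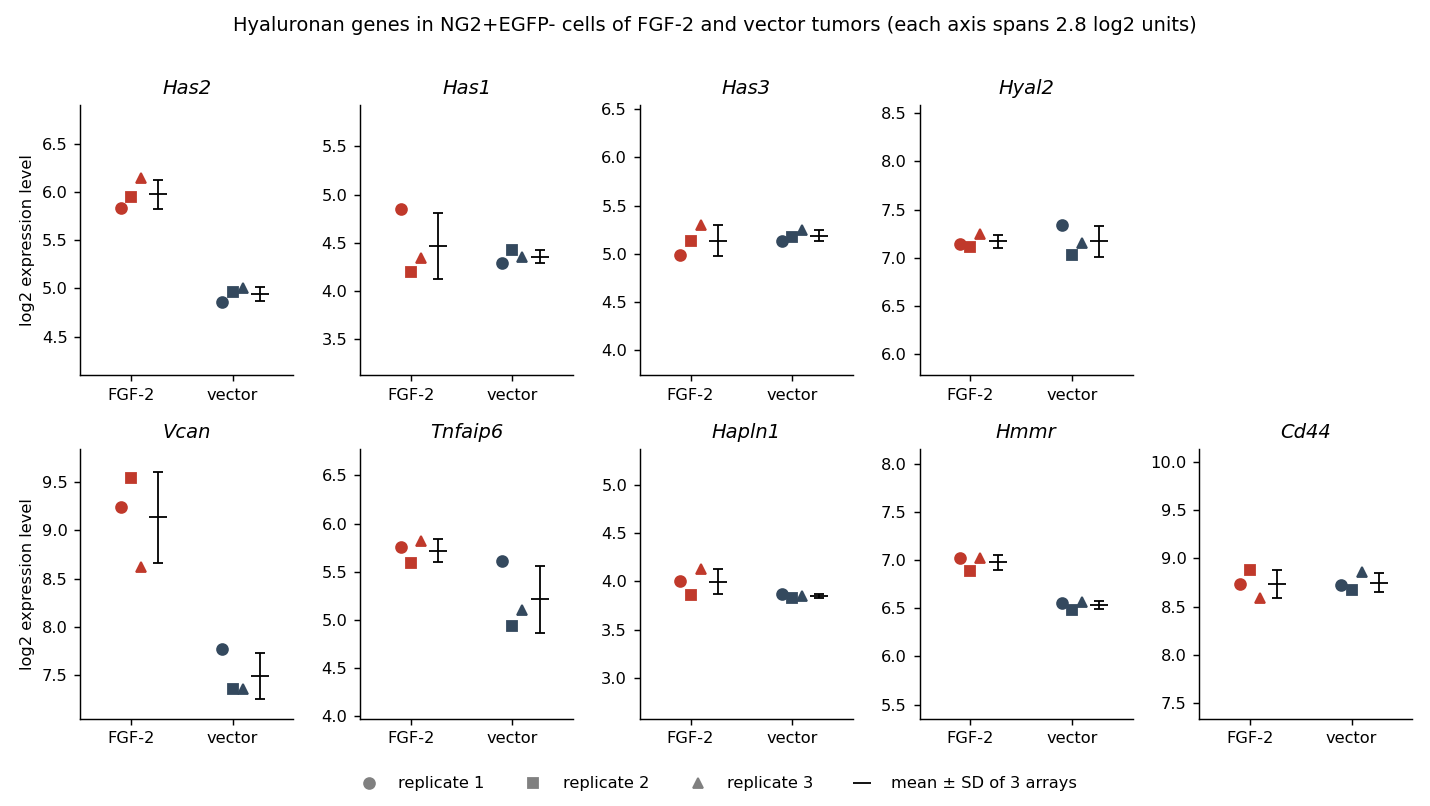
Log2 expression level of the 9 measured hyaluronan genes on each array, with 1 panel per gene, marker shapes for the replicates, FGF-2 tumors on the left and vector tumors on the right, and the mean ± SD of 3 arrays beside each group. Has2, Vcan and Hmmr show no overlap between the groups, and the other 6 genes overlap.

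The synthases differed among themselves. Has2 is the synthase that most hyaluronan of the developing mouse depends on. Its signal was 5.83, 5.95 and 6.14 in FGF-2 tumors, against 4.86, 4.96 and 5.005 in vector tumors. The lowest FGF-2 tumor array lay 0.83 above the highest vector tumor array. The means were 5.97 ± 0.16 in FGF-2 tumors and 4.94 ± 0.07 in vector tumors (SD, n = 3 each), a log2 fold change of 1.03 ± 0.12 (SE), which is 2.05-fold (limma, adjusted p = 0.00398). A comparison of 3 with 3 samples cannot give an exact permutation p below 0.1, and Has2 reached that value (two-sided). Ranked by log2 fold change, Has2 was gene 155 of 22180. The Has2 call rests on 1 probe set. A further probe set, shared by Has2 and its antisense gene Has2os and left out by the rule, had a log2 fold change of -0.03 (limma over all probe sets, adjusted p = 0.948). Being shared, it cannot tell Has2 from Has2os.

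Has1, a second synthase, had signals of 4.85, 4.20 and 4.34 in FGF-2 tumors, against 4.29, 4.42 and 4.35 in vector tumors. FGF-2 replicate 1 was the highest of the 6 arrays and FGF-2 replicate 2 the lowest, so that the groups overlapped. The log2 fold change of Has1 was 0.11, with a 95% interval of -0.26 to 0.48 (limma, adjusted p = 0.813).

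Has3, the remaining synthase, had signals of 4.98, 5.13 and 5.30 in FGF-2 tumors and of 5.13, 5.17 and 5.25 in vector tumors. FGF-2 tumor arrays were both the lowest and the highest, and the vector tumor arrays lay between them. The log2 fold change of Has3 was -0.05, with a 95% interval of -0.31 to 0.21 (limma, adjusted p = 0.889). These intervals leave out a change in array signal of the size seen for Has2 in either gene, but a smaller change could not be told from none. The signals were low: those of Has1 lay below every array median (4.93 to 5.01), and those of Has3 close to the medians. The Has2 signals of vector tumors (4.86 to 5.005) also lay close to the medians.

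The contrast among synthases was also taken within each array. Has2 minus Has3 was 0.85, 0.82 and 0.84 in FGF-2 tumors, against -0.27, -0.21 and -0.25 in vector tumors. The arrays of a group lay close together, and the groups lay 1.08 apart on average (exact permutation p = 0.1, two-sided, the smallest possible). Has2 minus Has1 was higher in FGF-2 tumors by 0.92 on average, again without overlap (exact permutation p = 0.1). Both differences are among 11 of this kind that were chosen after the values were seen, and an exact p of 0.1 becomes 0.138 after Benjamini-Hochberg adjustment over the 11. Here and below, a difference from a gene that scarcely changed largely repeats the change of Has2 or Vcan itself and is not separate evidence.

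Neither turnover gene gave a call. Hyal2, a hyaluronidase anchored to the cell surface by a lipid tail, had signals of 7.15, 7.11 and 7.25 in FGF-2 tumors, against 7.34, 7.02 and 7.15 in vector tumors. The highest and the lowest array were both from vector tumors, so that the FGF-2 tumor arrays fell inside the vector range. Both means were 7.17 (SD 0.07 in FGF-2 tumors and 0.16 in vector tumors), and the 95% interval of the log2 fold change ran from -0.27 to 0.26 (limma, adjusted p = 0.996). A further probe set, shared by Hyal2 and Gm9917, had a log2 fold change of 0.05 (limma over all probe sets, adjusted p = 0.907). For Hyal1, the lysosomal hyaluronidase, neither of the 2 probe sets shared with Naa80 passed in that fit. Their log2 fold changes were -0.11 (adjusted p = 0.824) and -0.34 (adjusted p = 0.257, unadjusted p = 0.0177). A shared probe set cannot tell the genes apart. Within arrays, Has2 minus Hyal2 was higher in FGF-2 tumors by 1.03 (exact permutation p = 0.1).

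Among the matrix proteins, Vcan moved most. Vcan encodes versican, a large chondroitin sulfate proteoglycan whose head domain binds hyaluronan. Its signal was 9.24, 9.54 and 8.62 in FGF-2 tumors, against 7.77, 7.35 and 7.35 in vector tumors. FGF-2 replicate 3 was the lowest of its group and still lay 0.85 above the highest vector tumor array. Vcan averaged 9.13 ± 0.47 in FGF-2 tumors and 7.49 ± 0.24 in vector tumors (SD, n = 3 each). The log2 fold change was 1.64 ± 0.22 (SE), or 3.12-fold (limma, adjusted p = 0.00849), rank 46 of 22180 genes. Without FGF-2 replicate 1 the log2 fold change of Vcan was 1.59, and it did not pass (limma, adjusted p = 0.0661). Over the 6 fits that each left out 1 array, its adjusted p ran from 0.00314 to 0.0661.

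Tnfaip6 encodes TSG-6, a secreted link-module protein that moves heavy chains of inter-alpha-trypsin inhibitor onto hyaluronan. Its signal was 5.76, 5.59 and 5.82 in FGF-2 tumors, against 5.61, 4.94 and 5.10 in vector tumors. The groups overlapped only through vector replicate 1, which lay just above FGF-2 replicate 2. The log2 fold change of Tnfaip6 was 0.51, with a 95% interval of 0.12 to 0.89, and it did not pass (limma, adjusted p = 0.214; exact permutation p = 0.2).

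Hapln1, the link protein that stabilises the bond between hyaluronan and proteoglycans in cartilage, gave a low signal throughout. It measured 4.01, 3.86 and 4.12 in FGF-2 tumors, against 3.87, 3.83 and 3.85 in vector tumors. FGF-2 replicate 2 lay inside the vector range, and the other FGF-2 arrays lay above it. The log2 fold change of Hapln1 was 0.15, with a 95% interval of -0.10 to 0.39 (limma, adjusted p = 0.580). Vcan minus Hapln1 within arrays was higher in FGF-2 tumors by 1.49 (exact permutation p = 0.1).

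Neither receptor passed. Cd44 encodes the main cell surface receptor for hyaluronan. Its signal was 8.73, 8.89 and 8.59 in FGF-2 tumors, against 8.72, 8.67 and 8.85 in vector tumors. FGF-2 tumor arrays were both the highest and the lowest, and the log2 fold change of Cd44 was -0.01, with a 95% interval of -0.28 to 0.25 (limma, adjusted p = 0.977). Within arrays, Has2 minus Cd44 was higher in FGF-2 tumors by 1.04, and Vcan minus Cd44 by 1.65 (exact permutation p = 0.1 for each).

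Hmmr encodes RHAMM, which binds hyaluronan at the cell surface and also sits on the mitotic spindle inside dividing cells. Its signal was 7.02, 6.88 and 7.02 in FGF-2 tumors, against 6.56, 6.49 and 6.56 in vector tumors. The groups were 0.32 apart at their closest. The means were 6.98 ± 0.08 in FGF-2 tumors and 6.53 ± 0.04 in vector tumors (SD, n = 3 each), and the log2 fold change of 0.44 ± 0.10 (SE) did not pass (limma, adjusted p = 0.0837; exact permutation p = 0.1).

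Because Hmmr follows the cell cycle, a list of 22 mitotic genes was read beside it. Of 21 measured, 0 rose and 0 fell by limma. At an unadjusted p under 0.05, limma gave 6 as higher and 0 as lower, and the methods' t-test 5 as higher and 0 as lower. Their median log2 fold change was 0.19, and 17 of the 21 were higher in FGF-2 tumors on average, as were 10166 of all 22180 genes. The kinetochore motor Cenpe gave a log2 fold change of 0.51 (limma, adjusted p = 0.0691), the spindle checkpoint kinase Bub1 one of 0.63 (adjusted p = 0.0928), and its relative Bub1b one of 0.36 (adjusted p = 0.159). Cenpe passed without vector replicate 3 (adjusted p = 0.0396) and under 3 other settings given at the end. Hmmr minus the mean of the 21 genes was -1.50, -1.38 and -1.61 in FGF-2 tumors, against -1.62, -1.66 and -1.85 in vector tumors. FGF-2 tumors were higher by 0.21 with the ranges just apart (exact permutation p = 0.1).

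Promoters, taken as 250 bases before and 50 after the transcription start in RefSeq (GRCm38.p6), were listed for 8 of the 10 genes. Has2 and Has3 had no entry. The 3 shown are those of the genes with an entry and an unadjusted limma p under 0.05. They are Vcan at chr13:89742463-89742762 (minus strand), Tnfaip6 at chr2:52037863-52038162 (plus strand) and Hmmr at chr11:40733388-40733687 (minus strand). Each runs 5′ to 3′ on the strand of its gene, and capitals mark matches, on either strand, to the motifs searched.
Vcan: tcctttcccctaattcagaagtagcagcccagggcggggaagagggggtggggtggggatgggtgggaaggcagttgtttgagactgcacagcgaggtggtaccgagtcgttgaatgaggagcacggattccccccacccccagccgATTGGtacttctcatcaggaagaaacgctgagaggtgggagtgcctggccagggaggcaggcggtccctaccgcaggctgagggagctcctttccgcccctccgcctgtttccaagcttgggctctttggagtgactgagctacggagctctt
Tnfaip6: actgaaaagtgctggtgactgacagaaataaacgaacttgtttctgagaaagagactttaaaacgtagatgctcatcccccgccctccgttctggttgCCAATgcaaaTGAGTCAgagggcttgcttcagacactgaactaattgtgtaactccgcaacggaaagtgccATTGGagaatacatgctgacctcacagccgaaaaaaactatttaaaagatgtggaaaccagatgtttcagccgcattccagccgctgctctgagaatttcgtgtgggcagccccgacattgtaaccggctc
Hmmr: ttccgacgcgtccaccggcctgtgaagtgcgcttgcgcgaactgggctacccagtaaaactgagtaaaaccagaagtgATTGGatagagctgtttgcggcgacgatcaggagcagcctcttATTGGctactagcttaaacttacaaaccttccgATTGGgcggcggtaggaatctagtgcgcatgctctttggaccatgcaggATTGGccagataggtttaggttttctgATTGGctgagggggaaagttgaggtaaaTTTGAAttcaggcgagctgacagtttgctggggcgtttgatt

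The motifs searched on both strands were the TATA box TATAAA, the CCAAT box CCAAT, the AP-1 site TGANTCA, the AHR core GCGTG and the cell cycle element TTTGAA, known as CHR. The AP-1 site can share bases with the CCAAT box or with CHR, and in the windows shown no base belonged to matches of different motifs. The Vcan window held 1 CCAAT match and no other. The Tnfaip6 window held 2 CCAAT matches and 1 AP-1 match. The Hmmr window held 5 CCAAT matches, all read on the opposite strand, and 1 CHR match. Over 32851 RefSeq windows of the same length, several of them for some genes, CCAAT was present in 37.4%, TGANTCA in 7.81%, TTTGAA in 17.9%, GCGTG in 32.4% and TATAAA in 13.6%. A match describes letters and not a bound site.

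Other genes of hyaluronan metabolism mostly stayed below the threshold. Of 41 such genes, 39 were measured, and 1 rose while 0 fell. At an unadjusted p under 0.05, limma gave 4 as higher and 2 as lower, and the methods' t-test 3 as higher and 3 as lower. Their median log2 fold change was 0.12, with 25 of 39 higher and 14 lower in FGF-2 tumors on average.

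Enzymes that make the sugar precursors of hyaluronan were higher on average in 8 of 8 genes, with a median log2 fold change of 0.20, and 1 rose. That gene was Gnpnat1, which acetylates glucosamine phosphate on the way to UDP-N-acetylglucosamine. Gnpnat1 had signals of 8.30, 7.89 and 8.06 in FGF-2 tumors, against 7.49, 7.28 and 7.14 in vector tumors. The groups did not overlap, and the log2 fold change was 0.78, or 1.72-fold (limma, adjusted p = 0.0337). The call was lost in 5 of the 6 fits that left out 1 array, with adjusted p up to 0.152, and held without vector replicate 1 (adjusted p = 0.0455).

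Gfpt2, which commits fructose phosphate to the hexosamine pathway, had signals of 5.27, 4.83 and 4.65 in FGF-2 tumors, against 4.30, 4.34 and 4.14 in vector tumors. The groups did not overlap, and its log2 fold change of 0.66 did not pass (limma, adjusted p = 0.0920). The Gfpt2 signals of vector tumors lay below every array median (4.93 to 5.01). Pgm3, a later step of the same pathway, gave a log2 fold change of 0.32 (adjusted p = 0.365). Ugdh, which makes the UDP-glucuronic acid component of the polymer, gave a log2 fold change of 0.15 (adjusted p = 0.543).

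Among 9 measured genes of hyaluronan breakdown, 0 rose and 0 fell by limma. At an unadjusted p under 0.05, limma and the methods' t-test each gave 0 as higher and 1 as lower. That gene was Cemip, which codes for a protein needed for hyaluronan depolymerisation by skin fibroblasts. Cemip had signals of 4.43, 4.32 and 4.17 in FGF-2 tumors, against 4.76, 4.80 and 4.65 in vector tumors. All 3 FGF-2 tumor arrays were below the vector arrays, and the log2 fold change of -0.43 did not pass (limma, adjusted p = 0.116). Its relative Cemip2 gave a log2 fold change of 0.28 (adjusted p = 0.344) and Hyal4 one of 0.22 (adjusted p = 0.450). The signals of Cemip and Hyal4 lay below every array median (4.93 to 5.01).

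Of 9 further hyaluronan receptors and binding proteins, 0 rose and 0 fell by limma, with 2 higher and 0 lower at an unadjusted p under 0.05 (1 and 0 by the methods' t-test). Lyve1, the receptor of lymphatic vessels that some tissue macrophages also carry, had signals of 7.85, 8.23 and 7.09 in FGF-2 tumors, against 7.17, 6.58 and 7.02 in vector tumors. FGF-2 replicate 3 fell among the vector tumor arrays, and the log2 fold change of 0.80 did not pass (limma, adjusted p = 0.208). Habp4 gave a log2 fold change of 0.28 (adjusted p = 0.295), and Tlr2, a pattern receptor reported to sense hyaluronan fragments, one of 0.34 (adjusted p = 0.640).

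Of 7 further matrix proteoglycans, link proteins and partners, 0 rose and 0 fell by limma, and none was under an unadjusted p of 0.05 by limma (0 higher, 0 lower) or by the methods' t-test (0 and 0). Ptx3, a pentraxin that works with TSG-6 in the matrix around the oocyte, gave a log2 fold change of 0.29 (adjusted p = 0.399), the link protein Hapln2 one of -0.26 (adjusted p = 0.443) and the proteoglycan brevican, Bcan, one of 0.17 (adjusted p = 0.593). The 6 genes of inter-alpha-trypsin inhibitor, whose heavy chains TSG-6 transfers, gave 0 risen and 0 fallen by limma, with 0 higher and 1 lower at an unadjusted p under 0.05 (0 and 2 by the methods' t-test). Ambp, which codes for its light chain bikunin, gave a log2 fold change of -0.30 (adjusted p = 0.288). The heavy chain genes Itih3 and Itih5 had log2 fold changes of -0.22 (adjusted p = 0.380) and 0.17 (adjusted p = 0.568). The signals of Hapln2, Bcan, Ambp, Itih3 and Itih5 lay below every array median (4.93 to 5.01).

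**Figure D2:**
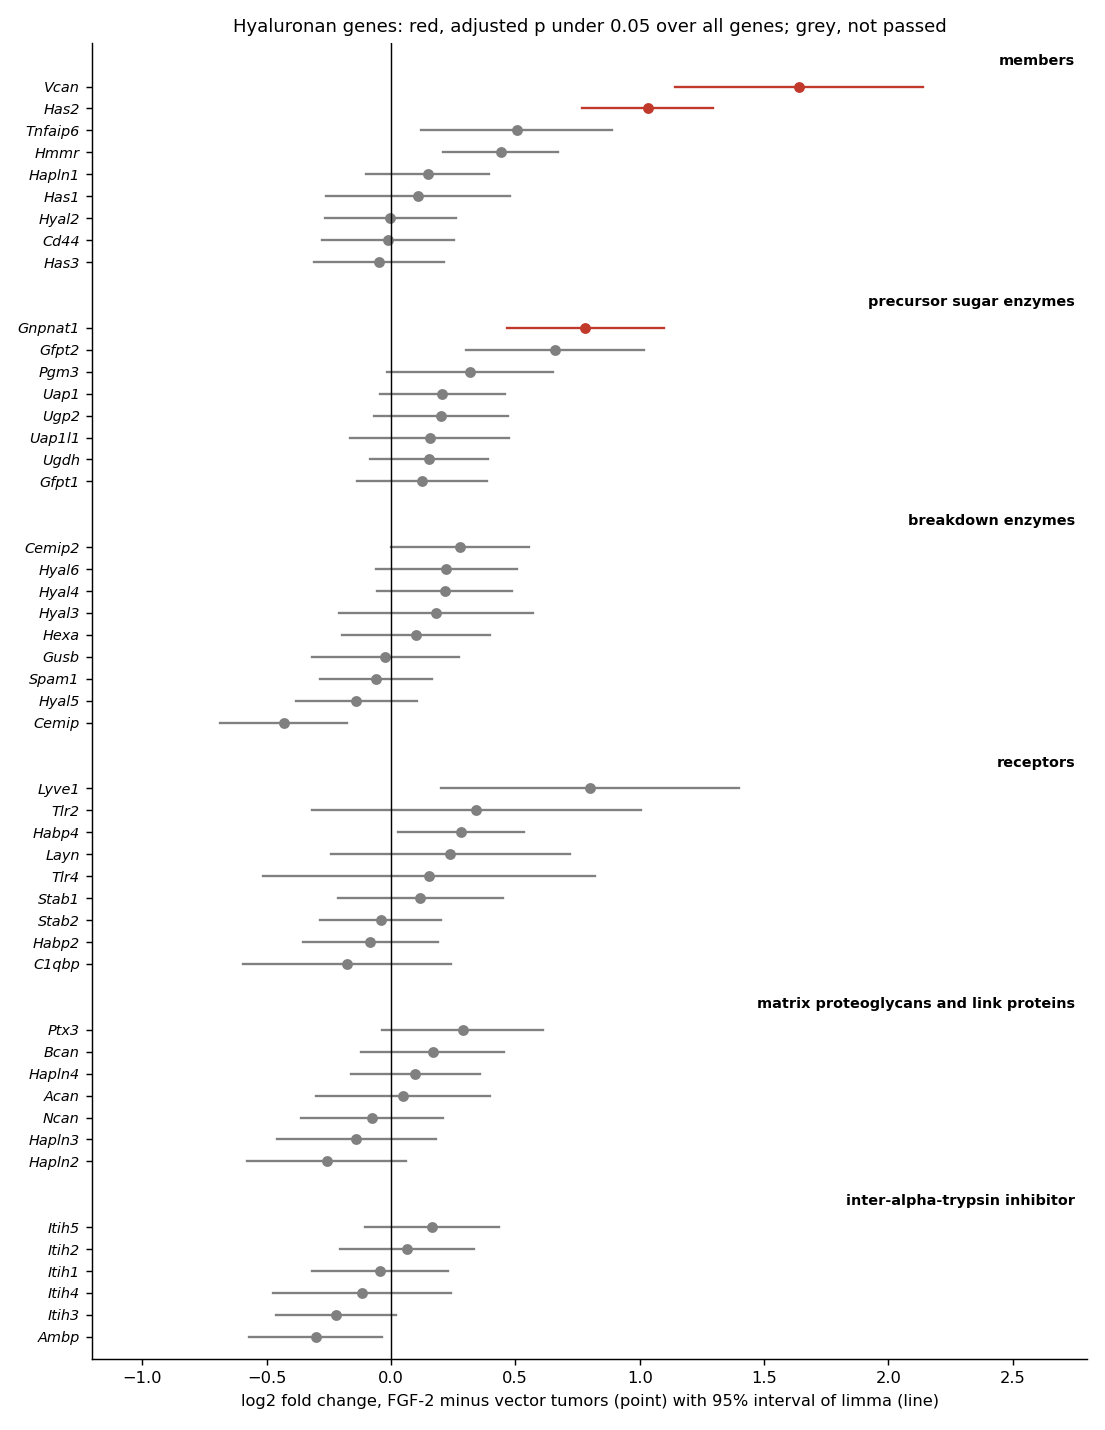
Log2 fold change, FGF-2 minus vector tumors, of the 9 measured hyaluronan genes (top block) and 39 other genes of hyaluronan metabolism in 5 blocks, as points with 95% intervals from limma. Vcan (1.64), Has2 (1.03) and Gnpnat1 (0.78), drawn in red, passed after adjustment over all genes, and the genes drawn in grey did not.

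Proteases that cut versican and aggrecan were read because Vcan rose. Of 7 measured, 0 rose and 0 fell by limma, with 3 higher and 0 lower at an unadjusted p under 0.05 (1 and 0 by the methods' t-test). On average 3 of the 7 were higher in FGF-2 tumors and 4 lower. Their median log2 fold change was -0.03, with a range of -0.46 to 0.53. Adamts9 had signals of 5.88, 5.62 and 5.65 in FGF-2 tumors, against 5.10, 5.27 and 5.19 in vector tumors. The groups did not overlap, and the log2 fold change of 0.53 did not pass (limma, adjusted p = 0.0690). Adamts4 gave a log2 fold change of 0.53 (adjusted p = 0.167). Adamts1 had one of 0.51 (adjusted p = 0.212), which passed only without vector replicate 3 (adjusted p = 0.0446). Of 7 measured genes that shed, anchor or bind CD44, 0 rose and 0 fell by limma, with 0 higher and 0 lower at an unadjusted p under 0.05 (1 and 0 by the methods' t-test). The membrane protease Mmp14 gave a log2 fold change of 0.22 (adjusted p = 0.388), the proteoglycan serglycin, Srgn, one of 0.13 (adjusted p = 0.725) and the sheddase Adam17 one of 0.11 (adjusted p = 0.732).

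Markers of pericytes and fibroblasts were higher in FGF-2 tumors beside these genes. Cspg4, which encodes the sort antigen NG2, measured 6.13, 6.10 and 6.00 in FGF-2 tumors, against 5.66, 5.50 and 5.85 in vector tumors (log2 fold change 0.41, limma, adjusted p = 0.161). Of 14 pericyte and smooth muscle markers, 6 rose and 0 fell, with mean log2 levels of 6.77 to 7.14 in FGF-2 tumors, against 5.97 to 6.18 in vector tumors. Of 13 fibroblast markers, 7 rose and 0 fell, with mean levels of 7.93 to 8.38 in FGF-2 tumors, against 6.51 to 7.20 in vector tumors. Leaving out 1 array at a time, the pericyte count ran from 3 (without FGF-2 replicate 1) to 7, and the fibroblast count was 2 without FGF-2 replicate 1 or 2, 3 without vector replicate 1, and 6 to 7 otherwise. Rgs5, a pericyte marker, gave a log2 fold change of 3.11, and Lum, which encodes the fibroblast proteoglycan lumican, one of 3.52.

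Macrophage signal was strong in both groups although the gate was set on NG2. The 13 measured macrophage markers had mean levels of 10.96 to 11.14 in FGF-2 tumors, against 10.85 to 11.26 in vector tumors. Of these, 0 rose and 1, the chemokine receptor Cx3cr1, fell by 0.86 on the log2 scale. Mrc1 was higher by 0.45, with every FGF-2 tumor array above every vector tumor array, and did not pass (limma, adjusted p = 0.0894). C1qb, the brightest of the 13 macrophage markers, had mean levels of 12.6 in FGF-2 tumors and 12.7 in vector tumors. Endothelial markers had mean levels of 5.74 to 6.15 in FGF-2 tumors, against 5.57 to 5.74 in vector tumors, a narrow overlap. All 11 were higher on average in FGF-2 tumors, and 1, Emcn, rose (log2 fold change 1.15). At an unadjusted p under 0.05, limma gave 5 endothelial markers as higher and 0 as lower, and the methods' t-test 2 and 0. The calls of Cx3cr1 and Emcn each held in 1 of 6 fits that left out an array. Neutrophil, T and NK cell, B cell and mast cell marker means overlapped between the groups. Of 8 neutrophil markers, 1 rose (Mmp8, log2 fold change 1.42) and 0 fell, with 3 higher and 5 lower on average. S100a9, another of these, was lower by 0.56 without overlap and did not pass (limma, adjusted p = 0.139). The S100a9 signals lay below every array median (4.93 to 5.01), whereas those of Mmp8 ran from 8.32 to 10.20. Whether Mmp8 reads neutrophils here was not tested. Of 6 B cell markers, 1 rose (Ebf1, 1.32, which mural cells and fibroblasts also express) and 0 fell, with 2 higher and 4 lower on average. At an unadjusted p under 0.05, limma and the methods' t-test each gave 1 B cell marker as higher and 1 as lower. Cd79a was lower by 0.47 without overlap and did not pass (limma, adjusted p = 0.0819). Of 10 T and NK cell markers, 0 rose and 0 fell by limma, with 1 higher and 4 lower at an unadjusted p under 0.05 (1 and 0 by the methods' t-test), and of 6 mast cell markers, 0 rose and 0 fell, with 1 higher and 0 lower (0 and 0 by the methods' t-test).

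**Figure D3:**
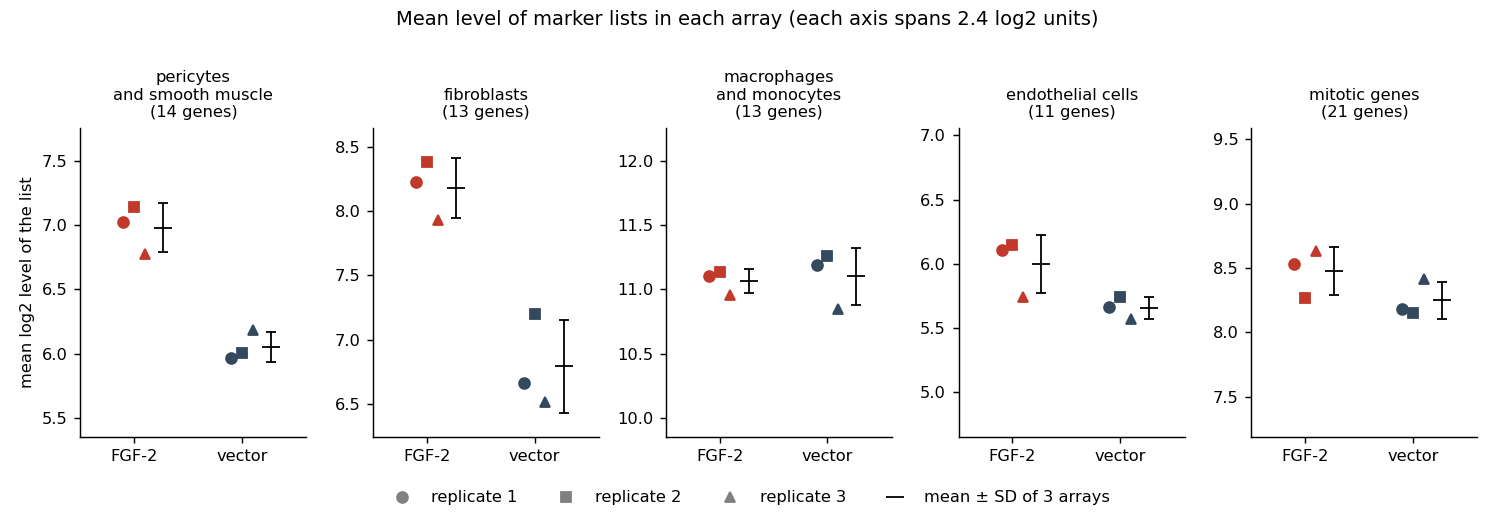
Mean log2 level of 4 cell type marker lists and of the mitotic genes on each array, with FGF-2 tumors left of vector tumors in each panel, marker shapes for the replicates and the mean ± SD of 3 arrays beside each group. The pericyte and fibroblast lists are higher on every FGF-2 tumor array. The macrophage and mitotic lists overlap, and the endothelial list overlaps narrowly.

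The changes of Has2, Vcan, Hmmr and Tnfaip6 were also set against the mean of the 27 pericyte and fibroblast markers on the same array. Has2 minus that mean was -1.77, -1.79 and -1.19 in FGF-2 tumors, against -1.44, -1.62 and -1.34 in vector tumors. The groups overlapped, with FGF-2 tumor arrays both lowest and highest, and differed by -0.12 on average (exact permutation p = 0.6). Vcan minus that mean was 1.64, 1.80 and 1.29 in FGF-2 tumors, against 1.47, 0.77 and 1.01 in vector tumors. These groups overlapped too, through vector replicate 1, and differed by 0.49 on average (exact permutation p = 0.2).

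Hmmr minus the marker mean was lower in FGF-2 tumors by 0.71 on average, without overlap (exact permutation p = 0.1), and Tnfaip6 minus the marker mean by 0.64, with overlap (exact permutation p = 0.2). The group means of Has2 and Vcan thus rose together with those of the pericyte and fibroblast markers. Within FGF-2 tumors, replicate 3 had the highest Has2 signal (6.14) and the lowest Vcan signal (8.62). That replicate also had the lowest pericyte (6.77) and fibroblast (7.93) marker means of its group. The part of cell composition in the change of Has2 and Vcan was not tested.

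**Figure D4:**
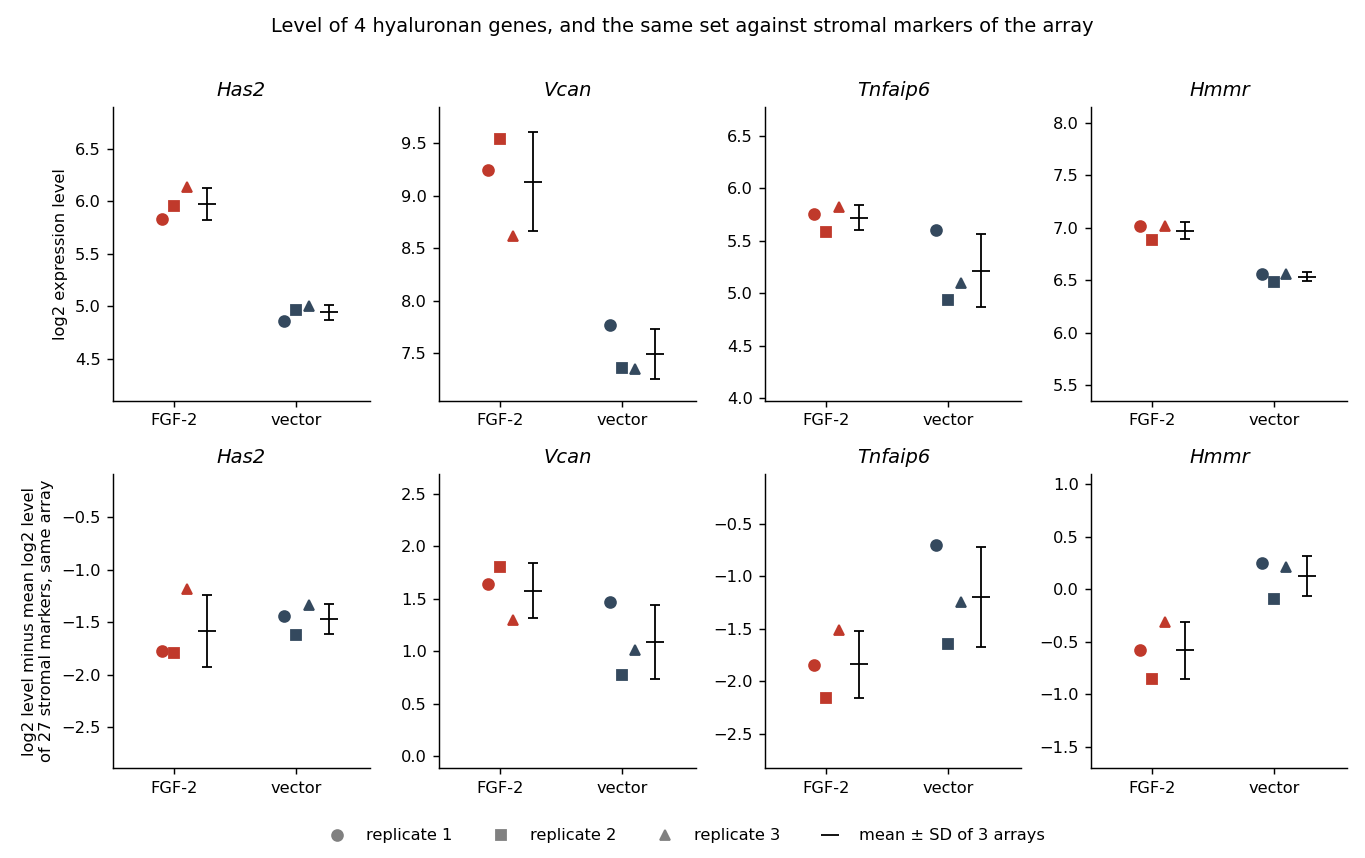
Log2 level of Has2, Vcan, Tnfaip6 and Hmmr (upper row) and the same minus the mean of 27 pericyte and fibroblast markers on that array (lower row), with FGF-2 tumors left of vector tumors, marker shapes for the replicates and the mean ± SD of 3 arrays. In the lower row Has2, Vcan and Tnfaip6 overlap between the groups, and Hmmr lies lower on all 3 FGF-2 tumor arrays.

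The genes whose levels over the 6 arrays lay closest to those of Has2 and Vcan were found by the root mean square difference of log2 levels, each gene centred on its own mean. Nearest to Vcan were Tshz3, a zinc finger transcription factor gene (difference 0.172), S1pr3, a sphingosine 1-phosphate receptor gene (0.183), and Itm2a, which encodes a membrane protein (0.186). Their log2 fold changes were 1.47, 1.61 and 1.69. Nearest to Has2 were Ndufa4l2, which encodes a mitochondrial protein found in pericytes (difference 0.0506), Timp3, a metalloproteinase inhibitor gene of the matrix (0.0977), and Cacna2d1, a calcium channel subunit gene (0.125). Their log2 fold changes were 0.99, 1.05 and 1.16. The likeness covers only 6 arrays in 2 groups, so any gene with a like change of group mean comes close.

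The calls of Has2 and Vcan were followed through fits that each left out 1 array. Has2 passed in 6 of 6, with log2 fold changes of 0.95 to 1.10 and adjusted p up to 0.0257. Vcan passed in 5 of 6, with log2 fold changes of 1.44 to 1.90, the exception being the fit without FGF-2 replicate 1 given above. Hmmr did not pass in any of the 6 (adjusted p 0.0862 to 0.282), nor did Tnfaip6 (0.0648 to 0.460).

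**Figure D5:**
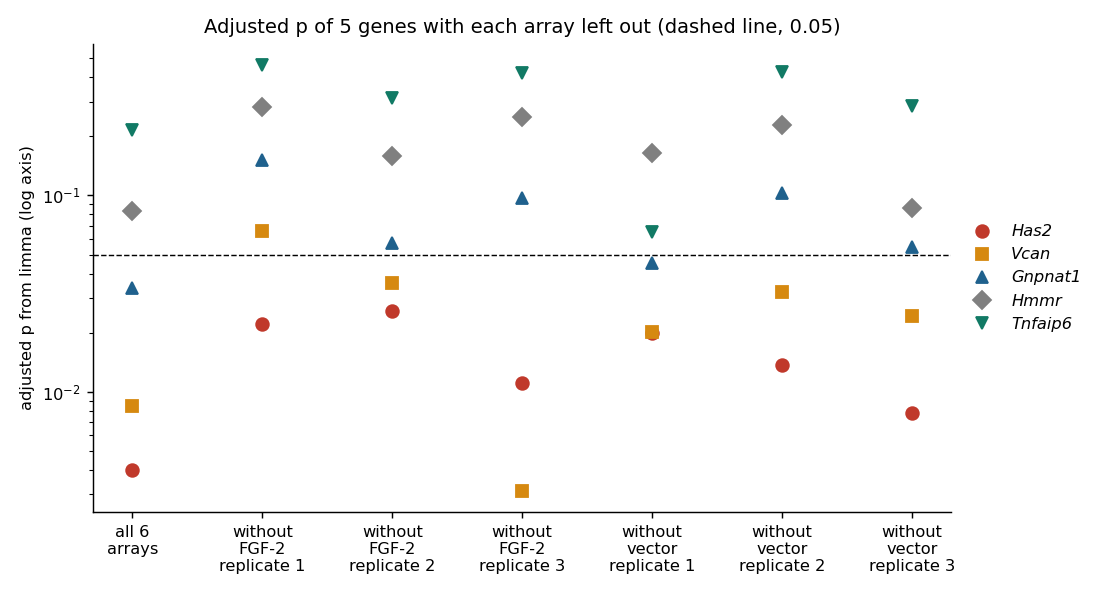
Adjusted p from limma (log axis) of Has2, Vcan, Gnpnat1, Hmmr and Tnfaip6 over all 6 arrays and with each array left out in turn, with a dashed line at 0.05. Has2 stays under the line throughout, and Vcan lies above it only without FGF-2 replicate 1 (0.0661).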

How the data were processed

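The authors sorted the cells, hybridised 3 biological samples per group, and deposited log2 signals for 33793 probe sets. Affymetrix Expression Console is named in the submitters' processing notes. Its version, the summarisation, the normalisation and the genome build are not given in the sources used here. Array medians were 4.93 to 5.01, and arrays correlated with each other at 0.982 to 0.994. Precision is limited by 3 arrays per group.

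Probe sets were named through GEO's platform annotation: 23521 carried 1 symbol, 1820 several and 8452 none. Probe sets with 1 symbol gave 22180 genes, using the brightest mean where a gene had several (1082 genes). Gene identifiers of 21994 matched RefSeq, and 0 symbols differed.

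Groups were compared with limma 3.58.1 in R 4.3.3 (lmFit, eBayes, two-sided), with Benjamini-Hochberg adjustment over all genes and a threshold of 0.05. Exact permutation tests used the 10 ways to set 3 arrays against 3. Members, 16 further gene lists and tests were chosen with earlier results of these data known. Beyond the members, the text names the genes of each list other than marker lists that passed or had the smallest p (at least 3 where measured). From the marker lists it names only some of the brightest genes and of those with smallest p. It also names Cspg4 as the sort antigen, and for Has2 and Vcan the 3 nearest genes. Ugdh, outside that rule, was chosen after its values were seen. On simulated data limma recovered 18 of 50 genes changed by 0.5, 49 of 50 by 1 and 50 of 50 by 1.5 (log2), with 11 false among 178 calls. With no gene changed, it made 2 calls. The simulated noise was normal, independent between genes and arrays, and had the spread that limma estimated. The simulation therefore cannot show how effects shared by the genes of an array bear on the real calls. Alternatives were other probe set rules, a filter on dim genes, median centring, quantile normalisation, a variance trend, array weights, a replicate block, the methods' unpaired t-test, and leaving out each array.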

Additional observations from a re-analysis of the deposited data

How the results depend on the processing

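Over all genes, 228 rose and 63 fell. With a replicate block the counts were 362 and 132, with array quality weights 394 and 160, and with the methods' t-test after Benjamini-Hochberg adjustment 0 and 2 (1631 and 1237 at an unadjusted p under 0.05). Leaving out 1 array at a time, 65 to 280 rose and 10 to 159 fell, the lowest without FGF-2 replicate 1 and the highest without vector replicate 3. Among the hyaluronan genes, 2 rose in the fit on all arrays, 0 with the methods' t-test and 1 to 2 with 1 array left out. None fell under any alternative run. Has2 and Vcan each passed in 8 of 9 other alternatives, and did not pass with the methods' t-test (adjusted p = 0.150 for Has2 and 0.230 for Vcan). Both genes have 1 probe set of their own, so averaging a gene's probe sets could not change their values. The filters on dim genes and the variance trend also reused the same values of these genes. Hmmr passed with array weights (limma, adjusted p = 0.0443). Of the other genes named, array weights also passed Cenpe (0.0271), Bub1 (0.0476) and Adamts9 (0.0383). Cenpe passed with median centring (0.0484) and a variance trend (0.0476), and Mrc1 with a variance trend (0.0275).

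The following log2 fold changes changed sign. Hyal2 was 0.032 and Cd44 0.023 with median centring, and Cd44 was 0.0069 and the endothelial marker Pecam1 -0.0014 with array weights. With 1 array left out, Has1 ran from -0.085 to 0.24, Has3 from -0.13 to 0.027, Hyal2 from -0.076 to 0.083, Cd44 from -0.086 to 0.061, Srgn from -0.025 to 0.22, Pecam1 from -0.23 to 0.43, the T cell marker Cd4 from -0.12 to 0.68 and the mast cell marker Cpa3 from -0.25 to 1.21. The causes were not tested. Deviations of same-numbered samples from their group means correlated at -0.02, 0.19 and 0.26. With so few arrays these values cannot decide whether the numbers pair samples, and the labels do not say. The replicate block changed the call of 0 members, while Gfpt2 (limma, adjusted p = 0.0428), Bub1 (0.0324) and the mast cell marker Mcpt4 (0.0100) passed with it.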
